A study of Mus musculus with 2 samples.

Results

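The 7 genes described here, Otx2, Fgf5, Pou3f1, Zic2, Zic5, Foxd3 and Utf1, were grouped as genes of formative and primed pluripotency. The question asked of them was where Nanog binds around them in mouse embryonic stem cells (ESCs). They were chosen by name, with earlier results of these data known, from 21755 protein-coding genes on chromosomes 1 to 19 and X. For each gene, the Nanog peaks within 100 kb of its transcription start site (TSS) were taken, along with those for which it was the protein-coding gene with the nearest TSS. Of 8735 distinct peaks on these chromosomes, 18 lay within 100 kb of at least 1 of the 7 genes and 15 had 1 of them as the nearest coding gene. Both conditions held for 14 peaks and either for 19.

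The data come from chromatin immunoprecipitation and sequencing (ChIP-seq) with an antibody to Nanog in Bruce-4 cells, a single mouse ESC line grown in medium with serum and leukaemia inhibitory factor (LIF). The series has 1 immunoprecipitated sample and 1 input sample of the same line, and no genotype, treatment or time was compared. Only the immunoprecipitated sample has a peak list, with positions on mm10 and no strength, so neither the height of a peak nor the depth behind it is known. With 1 library there was no replicate error and no test between conditions, and the identity of the cells could not be checked against expressed markers.

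Mouse pluripotent cells pass from a naive state, that of the early epiblast, through a formative state to a primed state, that of the epiblast around gastrulation. Which of these states the cells of this sample were in was not measured. On this path the naive factors decline and another set of genes comes up, of which Fgf5 and Otx2 are the usual markers. Nanog is a homeodomain transcription factor that holds the naive state together with Oct4 and Sox2, and Otx2 and Nanog are known to oppose each other's programmes. A peak near a gene is a place where Nanog was found on chromatin. It does not show whether the gene was on or off in these cells, since expression was not measured here.

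Among the 7 genes, 6 had at least 1 Nanog peak within 100 kb of the TSS, against 54.8% of all protein-coding genes. The counts were 7 for Otx2, 4 each for Zic2, Zic5 and Foxd3, 2 for Utf1, 1 for Fgf5 and 0 for Pou3f1. At least 4 peaks, reached by 4 of the 7, were found around 4.73% of coding genes (1028 genes). At least 7, reached by Otx2, were found around 0.188% (41 genes). Zic2 and Zic5 lie side by side and share all 4 of their peaks, so the 4 genes with 4 or more peaks stand for 3 separate loci. At 50 kb the same 6 genes had a peak, against 35.2% of coding genes, and at 5 kb only Fgf5 and Zic5 had one, against 6.25%.

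**Figure D1:**
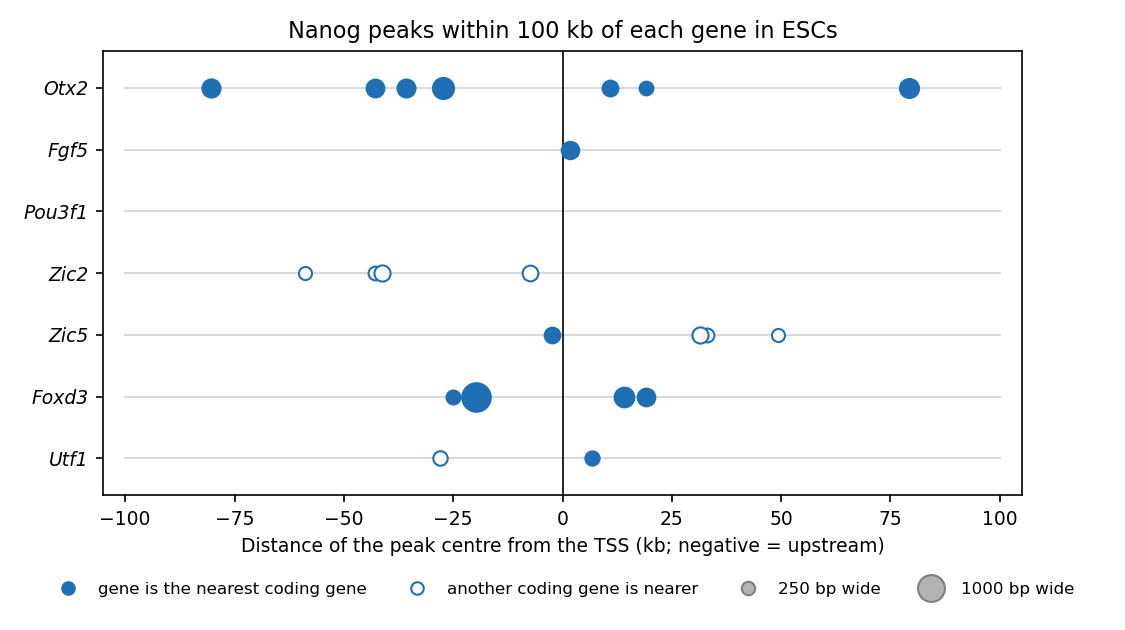
Position of each Nanog peak within 100 kb of the TSS of the 7 genes, with distance in kb (negative values upstream) on the x axis and 1 row per gene. Circle size gives peak width, and filled circles mark peaks for which the gene of that row was the nearest protein-coding gene. Otx2 has 7 filled circles, Pou3f1 has none of either kind, and the 4 circles of Zic2 and of Zic5 are the same peaks seen from opposite sides.

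**Figure D2:**
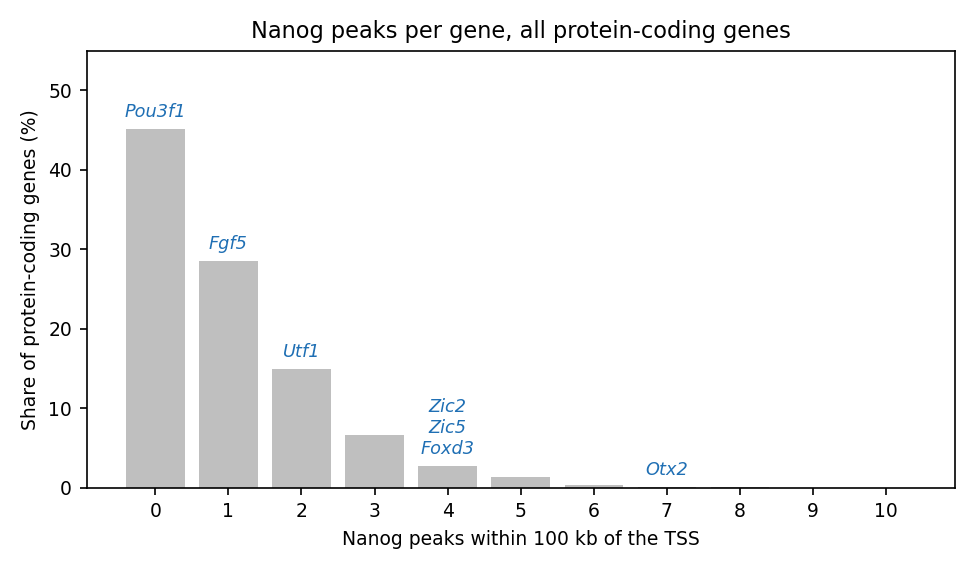
Share of all 21755 protein-coding genes (y axis, percent) with each number of Nanog peaks within 100 kb of the TSS (x axis). The names stand above the bar for their own number of peaks, from 0 for Pou3f1 to 7 for Otx2.

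Otx2 encodes a paired-type homeodomain factor that directs the move out of the naive state and later patterns the anterior epiblast and forebrain. The gene (ENSMUSG00000021848.16) lies at chr14:48657677-48673819 on the minus strand, with no other coding TSS within 100 kb. It was the nearest coding gene of 8 peaks, a number reached by 28 coding genes (0.129%), and the stretch of genome to which it is nearest measured 310 kb.

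Upstream of Otx2 there were 4 peaks within 100 kb, centred 27.4, 35.8, 42.9 and 80.4 kb from the TSS. The 27.4 kb peak (chr14:48700929-48701545) was 617 bp wide, the widest of the 7 and number 212 in width among the 8735 peaks. It lay in an intron of Otx2os1, a long non-coding RNA transcribed from the other strand, as did the other 3. The peaks at 35.8 kb (448 bp) and 42.9 kb (436 bp) followed it within a stretch of 16 kb (a run of peaks joined at the distance usual for stitching super-enhancers, with gaps of at most 8.01 kb at the 7 genes). The peak at 80.4 kb was 455 bp wide and stood alone. The eighth peak with Otx2 as the nearest coding gene lay outside the window, 172 kb upstream at chr14:48845395-48845635, and was 241 bp wide.

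On the other side of the TSS, 3 peaks were centred 10.8, 19.1 and 79.2 kb downstream, with widths of 345, 260 and 503 bp. The second was intergenic and the third in an intron of the non-coding gene Gm49120. The closest of all, at chr14:48662835-48663179, lay inside the Otx2 gene. It was wholly within an intron of 8 of the 11 annotated Otx2 transcripts and covered the start of another (at base 48662872). This peak also shared 150 of the 300 bases of a RefSeq promoter of Otx2 (250 bases before to 50 after a start). Among 8 RefSeq promoters of 5 of the 7 genes it was the only one that overlapped a peak, and over all 32619 promoters 1.33% did. No peak overlapped the TSS at the 5′ end of the gene. Pou3f1 and Zic2 were not matched in the promoter table.

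Sequence from 2 of the Otx2 peaks is shown because the intronic one carried an Oct octamer at its centre and the 27.4 kb one a pair of Sox motifs. Here and below, sequences are the plus strand of GRCm38, the assembly that mm10 denotes, and motif matches on either strand are in capitals. Peaks of more than 300 bp are shown by the 200 bases with the most motif bases.
Otx2, 10.8 kb downstream, chr14:48662907-48663106: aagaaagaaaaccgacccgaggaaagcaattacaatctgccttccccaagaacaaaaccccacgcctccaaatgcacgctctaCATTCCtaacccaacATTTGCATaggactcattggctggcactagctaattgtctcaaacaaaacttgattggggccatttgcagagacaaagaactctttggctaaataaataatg
Otx2, 27.4 kb upstream, chr14:48700978-48701177: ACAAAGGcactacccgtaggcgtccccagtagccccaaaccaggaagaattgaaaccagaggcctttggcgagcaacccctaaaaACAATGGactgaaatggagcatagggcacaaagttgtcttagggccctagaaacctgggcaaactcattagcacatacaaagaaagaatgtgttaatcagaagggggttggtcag
In the intronic peak the octamer lay 2 bp from the peak centre and a Tead motif lay 14 bp on the other side of the centre. The 2 Sox motifs of the upstream peak lay 171 and 256 bp from its centre, toward one edge.

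Fgf5 encodes a secreted fibroblast growth factor and is the most used marker of the formative and primed epiblast. The gene (ENSMUSG00000029337.2) lies at chr5:98254184-98277030 on the plus strand. Its single peak, chr5:98255695-98256113, was centred 1.72 kb downstream of the TSS in the first intron of both annotated transcripts, and 3.13% of coding genes (682) had a peak as close. The peak was 419 bp wide and its GC content of 54.9% was the highest among the 18. It is shown because it held more kinds of motif than any other of the 18, an Otx motif, a pair of Zic motifs, a Tead motif and a forkhead motif, of which the Otx and Zic matches fall in the 200 bases printed. The Otx, Zic and forkhead motifs were added to the search after the peaks were seen, and without them only the Tead motif remains. The 2 Zic motifs lay 40 and 9 bp from the centre and the Otx motif 83 bp from it.
Fgf5, 1.72 kb downstream, chr5:98255699-98255898: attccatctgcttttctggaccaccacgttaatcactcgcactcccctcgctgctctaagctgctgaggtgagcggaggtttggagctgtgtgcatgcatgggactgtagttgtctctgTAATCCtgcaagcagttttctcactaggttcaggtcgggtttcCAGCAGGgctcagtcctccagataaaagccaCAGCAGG

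Pou3f1, also called Oct6, encodes a POU-domain factor of the same family as Oct4. The gene (ENSMUSG00000090125.3, chr4:124656807-124660655, plus strand) was the only 1 of the 7 without a peak within 100 kb. Its closest peak, chr4:124825041-124825298, was 258 bp wide and lay 168 kb downstream, where Mtf1 at 23.1 kb was the nearest coding gene. A peak at least as close was found for 70.2% of coding genes. Pou3f1 had 5 other coding TSSs within 100 kb and was nearest to 41.4 kb of genome. Among the genes with peaks this length was 310 kb for Otx2, 210 kb for Foxd3, 81.1 kb for Fgf5, 42.0 kb for Utf1 and 12.2 kb for Zic5, with that of Zic2 within 1 kb of the last, and Utf1 also had 5 other coding TSSs within 100 kb. Absence from the list covers only what passed the peak call, whose threshold is not given in the sources used here.

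Zic2 and Zic5 encode zinc-finger factors of the Zic family. They form a divergent pair on chromosome 14, with Zic2 (ENSMUSG00000061524.8) at chr14:122475435-122479852 on the plus strand, Zic5 (ENSMUSG00000041703.7) at chr14:122456795-122465677 on the minus strand and 9.76 kb between their TSSs. A single peak, chr14:122467903-122468242, lay between them, 2.40 kb upstream of the Zic5 TSS and 7.36 kb upstream of that of Zic2, and was 340 bp wide. The other 3 lay on the far side of Zic5, at 31.5, 33.0 and 49.2 kb from its TSS and 41.2, 42.8 and 59.0 kb from that of Zic2, with widths of 361, 263 and 235 bp. All 4 were intergenic. For the 3 beyond Zic5 the nearest coding gene was Gm5089, at 16.9, 18.4 and 34.6 kb, so Zic5 was the nearest coding gene of 1 peak and Zic2 of none. A width of 235 bp was the smallest in the whole list.

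The peaks at 31.5 and 33.0 kb from Zic5 formed a stretch of 1.83 kb. Sequence is shown for the first of these, with a Sox motif 18 bp from its centre and an Otx motif near its edge, and for the peak between the genes, with an AP-1 motif 114 bp from its centre. An AP-1 motif was also found in the peak at 33.0 kb, and an octamer and a Zic motif in the peak at 49.2 kb.
Zic2 and Zic5, 31.5 kb downstream of Zic5, chr14:122434030-122434229: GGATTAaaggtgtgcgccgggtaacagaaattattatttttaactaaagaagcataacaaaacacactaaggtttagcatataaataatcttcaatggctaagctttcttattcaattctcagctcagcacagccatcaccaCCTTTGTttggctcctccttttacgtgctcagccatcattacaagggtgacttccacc
Zic2 and Zic5, between the genes, chr14:122467955-122468154: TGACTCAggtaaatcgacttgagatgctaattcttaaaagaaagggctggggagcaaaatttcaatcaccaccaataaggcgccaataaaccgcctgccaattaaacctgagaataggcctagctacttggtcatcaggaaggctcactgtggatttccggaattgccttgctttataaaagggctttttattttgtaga

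Foxd3 encodes a forkhead factor needed for the epiblast and for the neural crest. The gene (ENSMUSG00000067261.4, chr4:99656299-99658622, plus strand) had 1 other coding TSS within 100 kb and was the nearest coding gene of all 4 of its peaks, a number reached by 319 coding genes (1.47%). The peaks were placed on both sides in pairs, at 25.0 and 19.8 kb upstream and at 14.2 and 19 kb downstream, and each pair formed a stretch, of 5.88 and 5.36 kb. The 19.8 kb peak, chr4:99635926-99637055, was 1130 bp wide, the widest of the 18 and number 3 among 8735. It was listed on 2 lines. The others measured 268 bp (25.0 kb), 535 bp (14.2 kb) and 432 bp (19 kb). Both upstream peaks were intergenic, and the downstream ones lay in an exon and an intron of Gm12682, a non-coding gene on the opposite strand.

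The 19.8 kb peak is shown because it alone among the 18 held a Nanog core motif, 463 bp from its centre, and the 19 kb peak because of its 2 Sox motifs and Tead motif. In the latter a Sox motif lay 17 bp from the centre and the Tead motif 11 bp from it, on opposite sides.
Foxd3, 19.8 kb upstream, chr4:99636853-99637052: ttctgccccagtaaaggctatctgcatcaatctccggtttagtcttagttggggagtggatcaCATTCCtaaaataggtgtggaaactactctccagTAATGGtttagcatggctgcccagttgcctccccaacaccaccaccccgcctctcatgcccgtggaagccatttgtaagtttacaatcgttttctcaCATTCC
Foxd3, 19 kb downstream, chr4:99675300-99675499: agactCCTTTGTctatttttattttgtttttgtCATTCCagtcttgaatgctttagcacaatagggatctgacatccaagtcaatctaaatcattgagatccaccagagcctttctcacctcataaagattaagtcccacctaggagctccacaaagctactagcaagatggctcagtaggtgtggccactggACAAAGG

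Utf1 encodes a chromatin-associated protein of undifferentiated ESCs and of the epiblast. The gene (ENSMUSG00000047751.9) lies at chr7:139943789-139945112 on the plus strand, with 5 other coding TSSs within 100 kb, and 26.3% of coding genes had as many as its 2 peaks. The closer, chr7:139950418-139950697, was 280 bp wide and centred 6.77 kb downstream in an intron of the non-coding gene Gm16201. This peak covered the start of a Gm16201 transcript and lay 0.161 kb from the TSS of that gene. None of the motifs searched was found in it. The other was 287 bp wide and lay 27.9 kb upstream in an intron of Kndc1, whose TSS at 21.2 kb was nearer. It is shown whole for its Sox motif, 28 bp from the centre.
Utf1, 27.9 kb upstream, chr7:139915705-139915991: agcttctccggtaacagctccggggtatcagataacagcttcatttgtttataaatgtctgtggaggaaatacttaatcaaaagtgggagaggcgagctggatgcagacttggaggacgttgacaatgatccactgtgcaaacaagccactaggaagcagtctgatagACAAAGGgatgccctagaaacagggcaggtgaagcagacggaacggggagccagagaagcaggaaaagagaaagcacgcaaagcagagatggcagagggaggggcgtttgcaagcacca

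Over the 7 genes, the median distance from the TSS to the closest peak was 7.36 kb, against 85.3 kb over all coding genes. The median number of peaks within 100 kb was 4, against 1. Zic2 and Zic5 each enter these medians, though they share their 4 peaks and their closest peak, so the medians do not rest on 7 separate loci. The distances ran from 1.72 kb for Fgf5 through 2.40 kb for Zic5, 6.77 kb for Utf1, 7.36 kb for Zic2, 10.8 kb for Otx2 and 14.2 kb for Foxd3 to 168 kb for Pou3f1. Of the 7, 5 were the nearest coding gene of a peak, against 24.6% of coding genes and 9 of 10 in each of the lists of other formative and primed genes and of naive genes described below. By distance from the closer of the 7 genes, 2 of the 18 peaks lay within 5 kb, 6 from 5 to 20 kb, 8 from 20 to 50 kb and 2 beyond 50 kb. The farthest peak inside the window was the one at 80.4 kb from Otx2, and the nearest outside it lay 114 kb downstream of Utf1.

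**Figure D3:**
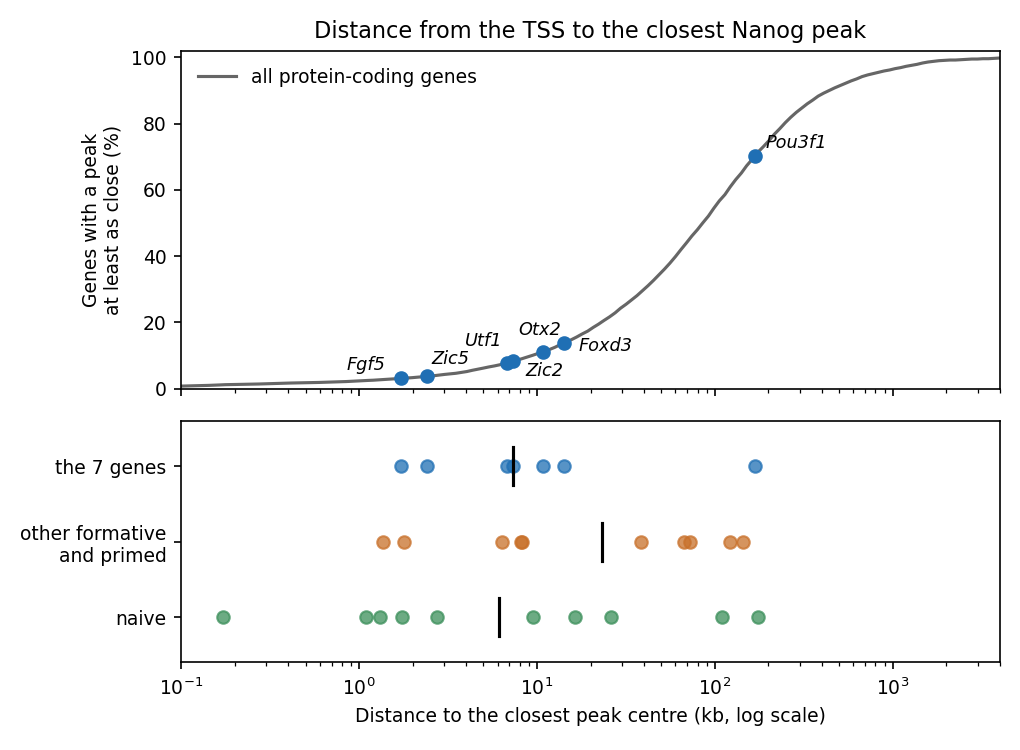
Distance from the TSS to the closest Nanog peak (x axis, kb, log scale). The upper panel gives the percentage of protein-coding genes with a peak at least as close, with the 7 genes as points on the curve, and the lower panel gives each gene of 3 lists as a point with the list's median as a black line, at 7.36 kb for the 7 genes, 23.3 kb for other formative and primed genes and 6.11 kb for naive genes.

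The 7 genes were set beside a list of 10 genes known to come up as cells leave the naive state, and beside 10 naive genes. Whether each of the 7 comes up at that step was not measured here, and Utf1 is already a gene of undifferentiated ESCs. Of the other formative and primed genes, 8 of 10 had a peak within 100 kb, with a median of 3 peaks (0 to 6) and a median closest distance of 23.3 kb. Grhl2, an epithelial factor of the formative state, had 6 peaks with the closest at 1.36 kb. The de novo DNA methyltransferase genes Dnmt3a and Dnmt3b had 3 each, with the closest at 67.1 and 6.34 kb. Sox3 and Cdh2 had none within 100 kb, with the closest at 121 and 144 kb. They were still the nearest coding gene of 1 and 6 peaks. Of the naive genes, 8 of 10 had a peak, with a median of 4 (0 to 5) and a median closest distance of 6.11 kb. Tfcp2l1, Prdm14, Dppa3 and Klf4 had 5 each. Esrrb and Nr0b1 had none within 100 kb, with the closest at 110 and 175 kb. Esrrb was still the nearest coding gene of 3 peaks, and Nr0b1 of none. The counts of the 3 lists overlapped, and no difference between them was tested.

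In width, the 18 peaks ran from 235 to 1130 bp with a median of 390 bp, against 319 bp over all peaks, and 12 of 18 (66.7%, exact 95% Clopper-Pearson interval 41.0 to 86.7) were at or above that overall median. Such intervals cover counting error only and take peaks as independent. By their middle base, 10 lay in introns, 7 were intergenic and 1 was in an exon of a non-coding gene, and none was in an exon of the 7 genes. The median GC content was 45.3% (42.1 to 54.9), against 47.7% over the other 8717 peaks. Runs of neighbouring peaks, joined by the same distance, held 11 of the 18 (61.1%, 35.7 to 82.7), against 24.1% of all peaks. The window around a gene selects peaks that lie near each other, and its part in this difference was not tested.

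Motifs were searched as exact words on both strands, apart from the Oct4-Sox2 composite, for which 2 mismatches were allowed. The words were ATGCAAAT for the Oct octamer, CCATTGT or CCTTTGT for Sox, CCATTA for the Nanog core and GCCATTAA for its extended form, GCCACACCC, GCCACGCCC, GCCCCACCC or GCCCCGCCC for Klf, TCAAGGTCA for Esrrb, GGAATG for Tead, TGACTCA or TGAGTCA for AP-1 and CACGTG for the E-box. The words TAATCC for Otx, GTAAACA for forkhead and CCTGCTG for Zic, the families of several of the 7 genes, were added after the peaks were seen. The octamer and Sox words can overlap the composite, and the extended Nanog word contains the core.

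At least 1 of the 13 motifs was found in 13 of the 18 peaks (72.2%, 46.5 to 90.3), against 80.9% of the other peaks and 17 of 34 flanking windows of the same width (50.0%), placed 1 kb beyond each edge and left out where they met another peak. The 5 peaks without any were those of Otx2 at 35.8 and 42.9 kb upstream and at 19.1 and 79.2 kb downstream, and that of Utf1 at 6.77 kb. An octamer was found in 3 of 18 (16.7%, 3.58 to 41.4), 2 of them at Otx2 and 1 at Zic2 and Zic5, against 5.70% of the other peaks and 0 of 34 flanks. Sox motifs were found in 5 (27.8%, 9.69 to 53.5), against 28.2% and 2 of 34 flanks. Either of these was found in 8 (44.4%, 21.5 to 69.2), against 32.0% and 2 of 34 flanks (5.88%). Each interval holds the share of the other peaks, so no difference from them was detectable with 18 peaks. The other peaks, with a median width of 319 bp against 390 bp, were not matched for width. A wider peak has more places where a word can match, and the part of width in these shares was not tested.

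The Oct4-Sox2 composite was found in 0 of 18 at 2 mismatches, for which the interval reaches 18.5%, against 2.87% of the other peaks. At 3 mismatches it was found in 2, the Otx2 peak at 80.4 kb and the peak 31.5 kb from Zic5, against 13.6%. Klf, Esrrb and E-box words were found in none of the 18, against 9.02%, 3.53% and 4.24%, values that lie below the same limit of 18.5%. In the flanks they were found in 0, 0 and 3 of 34. The Nanog core was found in 1 (5.56%, 0.141 to 27.3), the wide Foxd3 peak, against 18.1% of the other peaks and 17.6% of flanks. Tead was found in 6 (33.3%, 13.3 to 59.0) against 25.4% and 6 of 34 flanks. AP-1 was found in 2 (11.1%, 1.38 to 34.7) against 8.03% and 1 of 34 flanks.

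Of the words for the families that include some of the 7 genes, Otx was found in 3 of 18 (16.7%, 3.58 to 41.4) against 11.7% of the other peaks and 9 of 34 flanks. These were the Fgf5 peak, the peak 31.5 kb from Zic5 and the wide Foxd3 peak. Zic was found in 4 (22.2%, 6.41 to 47.6) against 23.6% and 2 of 34 flanks. The forkhead word was found in 1, at Fgf5, against 6.25% and 1 of 34 flanks. None of the 7 Otx2 peaks held an Otx word. In the 8 RefSeq promoters, a Klf word was found for Utf1 (16.1% of all promoters), a Tead word for Zic5 (14.6%), an E-box for Foxd3 (7.2%) and an Otx word for Otx2 (7.04%), and the others were not found. A word that matches is a description of sequence, and a missing word says only that these letters are not in the window.

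**Figure D4:**
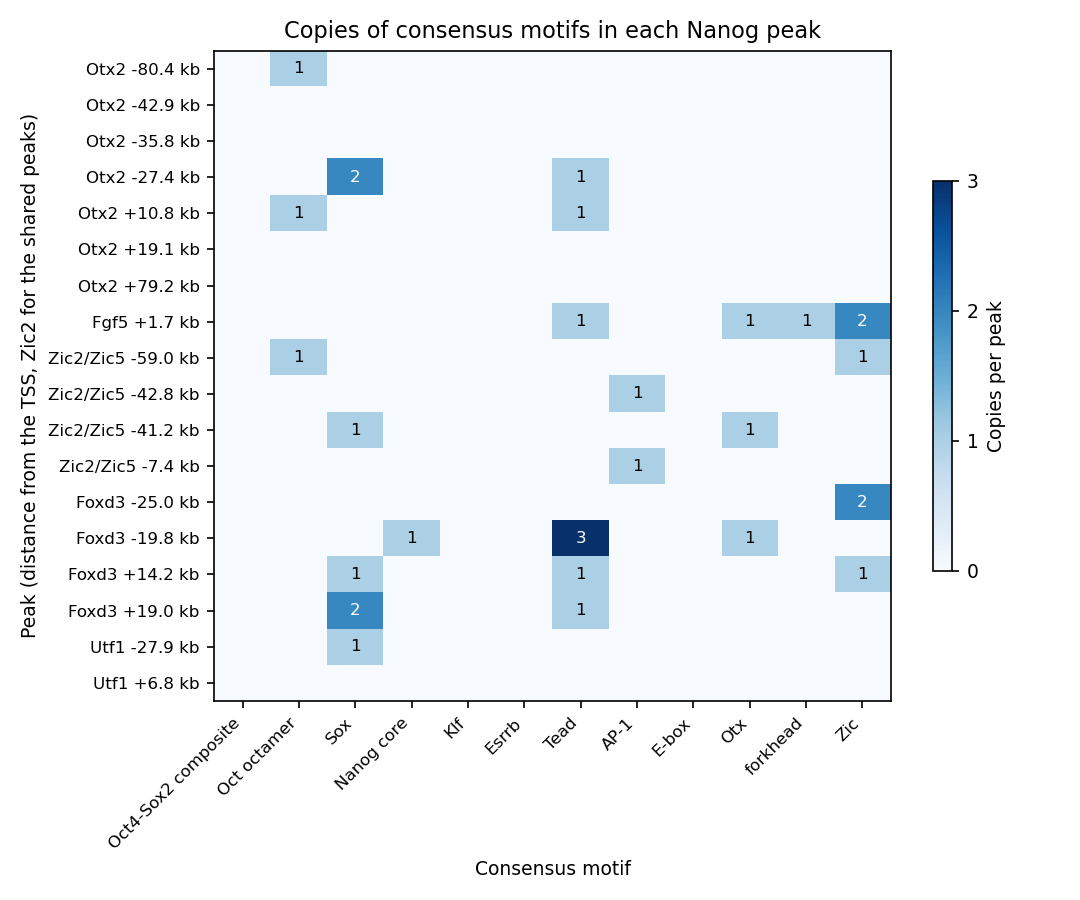
Number of copies of each motif (columns) in each of the 18 peaks (rows, with distance in kb from the TSS, that of Zic2 for the shared peaks). Empty cells are 0 copies, and the columns for the composite, Klf, Esrrb and E-box are empty throughout, while the extended Nanog word, also at 0, is not drawn.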

How the data were processed

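Per the study's methods, reads were checked with FastQC and aligned to mm10 with Bowtie2, BEDtools and SAMtools served to remove unwanted reads, and MACS2 called the peaks. Its threshold, and whether the input served as control, are not given in the sources used here. The authors deposited 1 peak list with chromosome, start and end in base pairs and no strength or read count. Of its 8860 lines, 123 repeated an interval and were counted once. The 2 peaks on unplaced scaffolds were left out, as was the input sample, which has no file.

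Genes came from GENCODE vM21 and sequence from GRCm38. Promoters came from RefSeq (GRCm38.p6). The TSS was the 5' end of the gene and distances ran to the peak's middle base. A nearest gene had to lie within 1000 kb. Positions are 1-based. The text names the 7 genes, their peaks, the coding genes nearer to those peaks and genes of the lists, though 1 of these is not reported here. The 7 genes and the lists were chosen with earlier results of these data known, so no p-value was computed. Alternatives changed the window, the point of the peak and TSS used, repeats, merging and motif settings, and kept peaks at or above the median width, in place of strength. Python 3.11.15 was used with numpy 2.4.6, scipy 1.17.1, pysam 0.24.0 and matplotlib 3.10.9, and the scripts were tested on simulated data.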

Additional observations from a re-analysis of the deposited data

How the results depend on the processing

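Of 45 alternative values of the summary results, 37 stayed within their bounds and 8 did not. A count or distance had to stay within 1.5 times its value, that limit included, and a percentage within its exact 95% interval. The percentage of coding genes with a peak was 35.2 at 50 kb, 74.7 at 200 kb, 57.6 with the TSS of every transcript and 34.8 with only peaks of at least the median width, against 54.8. The number of distinct peaks was 35 at 200 kb, against 18. Only 2 peaks had 1 of the 7 genes as nearest when all annotated genes competed, non-coding ones included, against 15. The Nanog core share was 0% within 200 bp around the peak centre and 0% for the extended word, against 5.56%. Of 49 alternative counts for single genes, 40 stayed within 1.5 times. At 200 kb the counts were 11 for Otx2 and Zic5, 10 for Zic2, 6 for Utf1, 2 for Fgf5 and 1 for Pou3f1, and with wider peaks only they were 2 for Zic2 and Zic5 and 0 for Utf1. No paired analysis was possible because a single library holds all values, and no replicate could be left out. With no strength or depth in the list, weak binding cannot be told from none.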

Other observations

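A list of 10 paralogs of the 7 genes, drawn up after the peaks were seen, held 4 genes with a peak within 100 kb, against 54.8% of coding genes. Its median was 0 peaks (0 to 2), and the median closest distance was 211 kb. Otx1 had 2 peaks, the closer at 14.3 kb, while Otx2 had 7. Pou3f2 had 1 peak at 9.28 kb, whereas Pou3f1, Pou3f3 and Pou3f4 had none. Zic1 and Zic4, a divergent pair like Zic2 and Zic5, had none within 100 kb, with the closest peak at 532 and 528 kb. Zic4 was the nearest coding gene of 1 peak. Foxd1 had 1 peak at 47.7 kb, and Foxd2 and Foxd4 had none. No difference between the lists was tested.

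Beyond the 100 kb window, Zic5 had 7 further peaks up to 200 kb from its TSS, 6 of which also lay within 200 kb of Zic2. All 7 were on the side of Zic5 away from Zic2, with Gm5089 or Clybl as the nearest coding gene. Their widths ran from 235 to 504 bp. Foxd3 had no further peak in this range.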
